A study of Mus musculus with 9 samples.

Results

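The 31 genes described here encode plasma proteins of blood coagulation and complement. They were picked by symbol, with earlier results of these data known, out of the 21936 genes of the deposited mouse liver table. All 31 were found there. WT mice were injected intraperitoneally with NaCl, with retrorsine (25 mg/kg) or with a higher dose of it (50 mg/kg), and their livers were taken 2 h later for RNA-seq, with 3 libraries in each group. The sources used here give no strain, sex or age of the mice. Retrorsine is a pyrrolizidine alkaloid, a plant toxin that cytochrome P450 enzymes of the hepatocyte convert into reactive pyrroles.

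Hepatocytes make most circulating clotting factors and complement components and secrete them into blood. Coagulation is a cascade of zymogens (inactive protease precursors) that ends in thrombin and fibrin, restrained by the protein C pathway and by serpin inhibitors, and undone by plasmin. Complement is a second protease cascade, which starts from antibody, lectin or spontaneous C3 cleavage, meets at C3 and ends in the membrane attack complex.

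Levels within a gene are given as CPM, counts scaled to TMM-adjusted library size, for replicates 1, 2 and 3 in that order. Levels between genes are given as the authors' FPKM, which also divide by the deposited gene length. For the 31 members that length is the number of exon bases over all annotated transcripts. It is 8546 bases for Serpinc1 and 2324 for Serpinf2, so the order of genes by FPKM depends on it. Log2 fold changes carry their standard error (SE), and each adjusted p comes from the quasi-likelihood test of edgeR, adjusted by Benjamini-Hochberg over 12557 genes, with a threshold of 0.05. All 31 genes passed the filter on low counts and were tested. Total counts ran from 15241261 to 18691736 per library. Whether each library stands for its own animal is not stated in the labels, so p-values cover only the spread among these samples. In whole liver, fewer cells of a type and less RNA per cell cannot be told apart.

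Some libraries stood apart in transcripts of other cells. The 8 pancreatic acinar markers, all detected, summed to 11.04 to 18.04 CPM after 25 mg/kg and 9.84 to 268 CPM after 50 mg/kg, against NaCl values of 187 to 4561 CPM, with NaCl replicate 1 the highest and 50 mg/kg replicate 2 the highest retrorsine library. The 6 neutrophil markers summed to 169 CPM in 50 mg/kg replicate 3 and to 2.73 to 20.6 CPM in the other libraries. The 5 cholangiocyte markers summed to 126 CPM in NaCl replicate 2 and to 29.8 to 58.4 CPM in the other libraries. The part of these cells in the results was not tested.

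At 2 h, 4 of the 31 transcripts passed the threshold in at least 1 comparison with NaCl, and 27 in none. Pros1, which encodes the protein C cofactor protein S, fell at both doses. F5, the gene of the factor V cofactor, fell at 50 mg/kg. Mbl1 and Mbl2 encode the mannose-binding lectins, which start the lectin pathway of complement. Mbl1 fell at 25 mg/kg, and Mbl2 rose at 50 mg/kg.

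After 25 mg/kg, 2 of 31 members (6.45%) passed the threshold, against 13.5% of all genes tested. Both were lower and 0 were higher, while 7.56% of all genes were called lower and 5.90% higher. After 50 mg/kg, 3 of 31 (9.68%) passed, against 15.1% of all genes. Of these 2 were lower and 1 was higher, beside 8.01% of all genes called lower and 7.09% called higher. With library totals in place of TMM the split over all genes was 1194 lower and 656 higher, against 1006 and 890 with TMM, and 2 members were lower and 0 higher. The 2 comparisons share the NaCl libraries, so they are not independent of each other. Between the doses edgeR called 0 of 31 members, as did DESeq2 and limma-voom, with 1 member at an unadjusted p under 0.05. There 0.00796% of all genes were called, which is 1 gene.

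The counts mostly fell when a library was left out, among the members as over all genes, but not in every case. Without 25 mg/kg replicate 2, edgeR called 3 members at each dose, with 1561 genes at 25 mg/kg and 1921 at 50 mg/kg. Without 50 mg/kg replicate 3 it called 1850 genes at 25 mg/kg. Without NaCl replicate 1, edgeR called 0 members at either dose, with 3 at an unadjusted p under 0.05 at 25 mg/kg and 5 at 50 mg/kg. Over all genes that omission left 896 calls at 25 mg/kg, against 1690 with all libraries, and 1092 at 50 mg/kg, against 1896. The count was likewise 0 at both doses without NaCl replicate 3 (6 and 4 unadjusted), 0 at 25 mg/kg without 25 mg/kg replicate 1 or 3 (3 and 4 unadjusted), and 0 at 50 mg/kg without 50 mg/kg replicate 2 (4 unadjusted). It was 1 at each dose without 50 mg/kg replicate 1. Over all genes, the omissions of 1 library that left 0 members called left 626 to 896 calls at 25 mg/kg and 700 to 1151 at 50 mg/kg. With all libraries, DESeq2 called 2 members at 25 mg/kg and 4 at 50 mg/kg, and limma-voom called 2 and 3. Without NaCl replicate 1 the log2 fold changes were -0.62 for Pros1 and -0.85 for Mbl1 at 25 mg/kg, and -0.65 for Pros1, -0.61 for F5 and 0.50 for Mbl2 at 50 mg/kg, so the directions stayed. At 50 mg/kg they were -0.75 for F5, -0.76 for Pros1 and 0.52 for Mbl2 without 50 mg/kg replicate 2, where none of the 3 passed. Without 50 mg/kg replicate 3 they were -0.79 for F5 and 0.49 for Mbl2, which did not pass, and -0.92 for Pros1, which did.

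The median log2 fold change of the 31 members was -0.17 after 25 mg/kg and -0.14 after 50 mg/kg, against 0.012 and 0.00051 for all genes tested. Without NaCl replicate 1 the members' median was -0.018 and 0.0035. At each dose 10 members lay above 0 and 21 below. The groups did not overlap for 8 of 31 members (25.8%) at 25 mg/kg, where the share over all genes was 36.5%. At 50 mg/kg this held for 12 of 31 (38.7%), against 35.0% of all genes. Between the doses it held for 3 of 31 (9.68%), against 11.4% of all genes. The counts of members were thus below or close to those of all genes in each comparison.

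**Figure D1:**
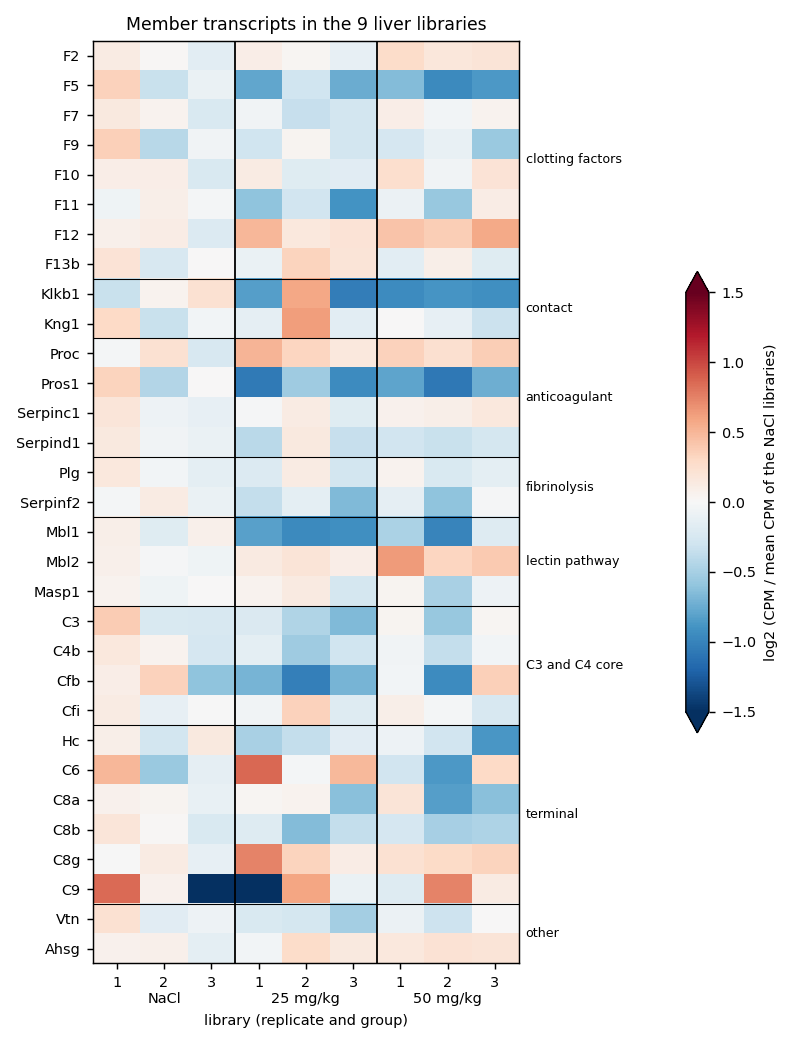
Level of each of the 31 members (rows, grouped by role) in each of the 9 libraries (columns), as log2 of the CPM over the mean CPM of the NaCl libraries, with red higher and blue lower. The colour scale ends at 1.5 in both directions, and C9 lies beyond it in NaCl replicate 3 and 25 mg/kg replicate 1. Pros1 and F5 are blue after both doses, and Mbl1 and Mbl2 differ in colour.

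The 95% confidence interval of the fold change lay wholly within 2-fold of no difference for 23 of 31 members (74.2%) at 25 mg/kg and 25 of 31 (80.6%) at 50 mg/kg. The same held for 46.8% and 45.4% of all genes tested. The exceptions at both doses were F5, Klkb1, Pros1, Cfb, C6 and C9, joined at 25 mg/kg by F11 and Mbl1. For 27 of 31 members (87.1%, all genes 60.4%) a 2-fold difference between the doses lay outside the interval as well, the exceptions being Klkb1, Cfb, C6 and C9. The members' intervals were also narrower, with a median half-width of 0.386 on the log2 scale in each comparison, against 0.597 or 0.598 for all genes. These shares thus depend on the width of the intervals as well as on the fold change.

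**Figure D2:**
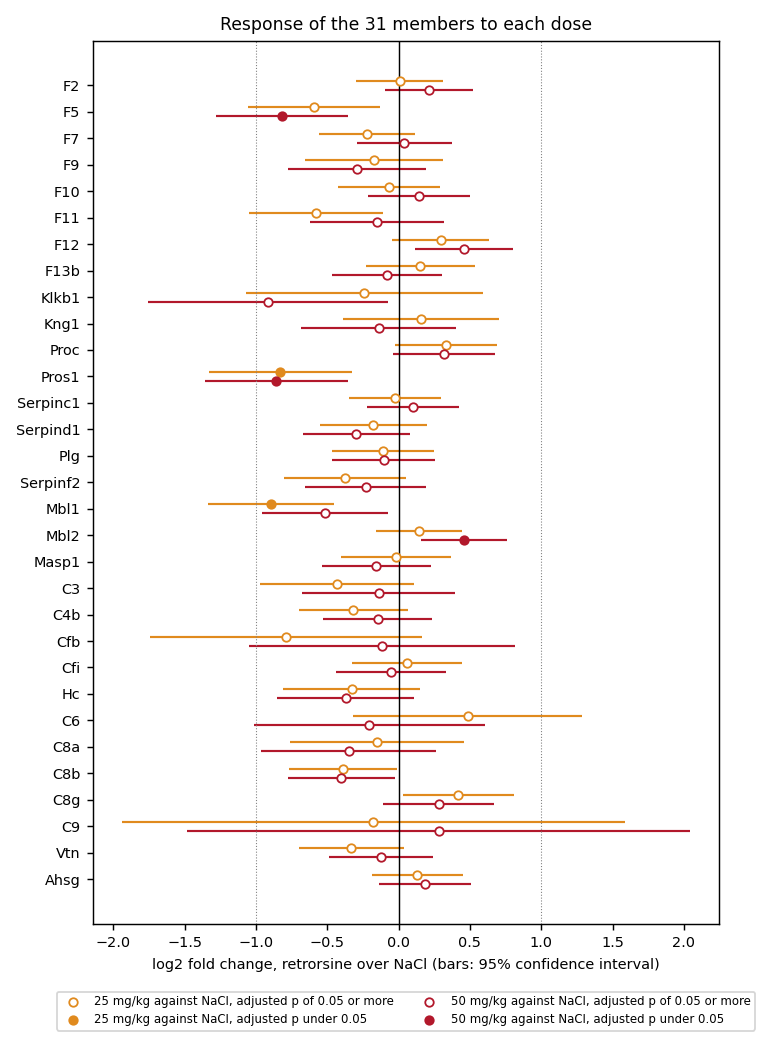
Log2 fold change of each member (rows) for retrorsine at 25 mg/kg (orange) and 50 mg/kg (red) over NaCl, with bars for the 95% confidence interval and filled points for an adjusted p under 0.05. Filled points are Pros1 at both doses, Mbl1 at 25 mg/kg, and F5 and Mbl2 at 50 mg/kg. Dotted lines mark 2-fold differences.

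With NaCl, levels spanned a wide range. C3, the component on which all complement pathways converge, stood highest at 4972 ± 869 FPKM (SD, n = 3). It was followed by Ahsg at 3636 ± 329 FPKM, the gene of fetuin-A, and Vtn at 1741 ± 117 FPKM, the gene of vitronectin, an adhesion protein that also restrains the terminal complex. Serpinf2, F2 and Plg came next, at 619 ± 79, 594 ± 38 and 583 ± 25 FPKM, differences smaller than their spread. The lowest were Pros1 at 10 ± 2.0 FPKM, Klkb1 at 5.14 ± 1.3 FPKM, C6 at 3.29 ± 0.96 FPKM and Cfb at 0.632 ± 0.20 FPKM. Together the 31 genes held 4.54% to 5.01% of all counts after 25 mg/kg and 4.53% to 5.69% after 50 mg/kg, against 5.14% to 6.05% with NaCl. C3 alone was between 37.4% and 50.8% of the members' counts.

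Of the 8 clotting factor genes F5 alone passed the threshold, which is 12.5% at 50 mg/kg, against 15.1% of all genes. F5 stood at 449, 280 and 330 CPM with NaCl, at 206, 286 and 211 CPM after 25 mg/kg, and at 225, 183 and 194 CPM after 50 mg/kg. All 3 of the 50 mg/kg libraries lay below all 3 NaCl libraries, and 25 mg/kg replicate 2 lay just above the lowest NaCl library. F5 (ENSMUSG00000026579, GRCm38 chromosome 1, 164151838 to 164220277) fell by 0.82 on the log2 scale at 50 mg/kg (SE 0.21, adjusted p = 0.029). At 25 mg/kg the log2 fold change was -0.59 (SE 0.21, adjusted p = 0.090), and between the doses it was -0.22 (95% interval -0.69 to 0.24, adjusted p = 0.82). The call at 50 mg/kg ended in 7 of 20 alternatives. These were the replicate block, the 2 omissions of a pair, and the omission of NaCl replicate 1 or 3, or 50 mg/kg replicate 2 or 3. Adjusted p-values ran from 0.0051 to 0.18 and log2 fold changes from -0.96 to -0.54 over the 20 alternatives.

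F12, the gene of factor XII, which starts the contact pathway, had the highest fold change of this group. Its libraries read 841, 867 and 694 CPM with NaCl, 1131, 896 and 921 CPM after 25 mg/kg, and 1079, 1036 and 1190 CPM after 50 mg/kg. Each retrorsine library was above each NaCl library. The log2 fold change was 0.46 at 50 mg/kg (SE 0.15, adjusted p = 0.072) and 0.30 at 25 mg/kg (SE 0.15, adjusted p = 0.24), so neither passed. DESeq2 alone, of 20 alternatives, put the 50 mg/kg value past the threshold (adjusted p = 0.031).

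F11, the zymogen activated by factor XIIa and thrombin, had 58.8, 65.2 and 60.0 CPM with NaCl, 40.3, 50.1 and 32.9 CPM after 25 mg/kg, and 57.9, 41.4 and 66.4 CPM after 50 mg/kg. Its 25 mg/kg libraries were all below the NaCl libraries, but the 50 mg/kg libraries straddled them. The log2 fold changes were -0.58 at 25 mg/kg (SE 0.21, adjusted p = 0.10) and -0.15 at 50 mg/kg (SE 0.21, adjusted p = 0.66). F13b, the carrier subunit of the fibrin-crosslinking factor XIII, read 149, 109 and 129 CPM with NaCl, 121, 162 and 147 CPM after 25 mg/kg, and 116, 137 and 114 CPM after 50 mg/kg, so its 3 groups overlapped.

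The vitamin K-dependent genes share a maturation step, the carboxylation of glutamates in the protein, and are F2, F7, F9, F10, Proc and Pros1. At each dose 1 of these 6 (16.7%) was called, Pros1 in both cases, and it was lower. Over all genes tested, 13.5% were called at 25 mg/kg and 15.1% at 50 mg/kg. F2, the gene of prothrombin, averaged 2684 ± 255 CPM with NaCl, 2698 ± 216 CPM after 25 mg/kg and 3111 ± 112 CPM after 50 mg/kg (SD, n = 3 each). Its 50 mg/kg libraries lay above those of both other groups, with a log2 fold change over NaCl of 0.21 (SE 0.14, adjusted p = 0.32). F7, the zymogen that tissue factor recruits, averaged 212 ± 29, 182 ± 20 and 218 ± 11 CPM in the same order of dose, and its 50 mg/kg libraries were above all 25 mg/kg libraries. F9, which with factor VIII activates factor X, averaged 85.5 ± 23, 75.8 ± 11 and 69.8 ± 11 CPM, with groups that overlapped. F10, the zymogen of the enzyme that cleaves prothrombin, averaged 809 ± 102, 771 ± 93 and 894 ± 100.5 CPM and overlapped likewise. F7 and F10 are neighbours on chromosome 8, 1.5 kb apart on the same strand, with log2 fold changes of -0.22 and -0.07 at 25 mg/kg and of 0.04 and 0.14 at 50 mg/kg.

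Pros1 was the member that passed at both doses. Protein S, its product, is the cofactor with which activated protein C cuts factors Va and VIIIa. Its libraries read 51.2, 29.9 and 40.6 CPM with NaCl, 19.4, 28.0 and 21.2 CPM after 25 mg/kg, and 23.5, 19.3 and 24.3 CPM after 50 mg/kg. Every retrorsine library lay below every NaCl library, the nearest being 25 mg/kg replicate 2 at 28.0 CPM and NaCl replicate 2 at 29.9 CPM. Pros1 (ENSMUSG00000022912, GRCm38 chromosome 16, 62854307 to 62929346) fell by 0.83 on the log2 scale at 25 mg/kg (SE 0.22, adjusted p = 0.038) and by 0.86 at 50 mg/kg (SE 0.22, adjusted p = 0.032). Between the doses the log2 difference was -0.03 (95% interval -0.53 to 0.47). The call at 25 mg/kg ended in 8 of 20 alternatives, and the one at 50 mg/kg in 7, NaCl replicate 1 and NaCl replicate 3 among the single libraries that ended either. Further, leaving out 25 mg/kg replicate 1 or 3, or 50 mg/kg replicate 1, ended the call at 25 mg/kg, and leaving out 50 mg/kg replicate 1 or 2 ended the one at 50 mg/kg. The log2 fold change stayed between -1.01 and -0.62 at 25 mg/kg and between -1.04 and -0.56 at 50 mg/kg.

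Endothelial cells make protein S as well. The summed level of 10 sinusoidal endothelial markers, all detected, was 435 to 470 CPM after 25 mg/kg and 301 to 451 CPM after 50 mg/kg, against NaCl values of 483 to 501 CPM. The 8 hepatocyte markers, also all detected, summed to 124400 to 160100 CPM after 25 mg/kg and 121100 to 140600 CPM after 50 mg/kg, against NaCl values of 118300 to 143200 CPM. Most of this sum is Alb, which averaged 99390 CPM with NaCl, where the sum averaged 128100 CPM. The part of the endothelial level in the Pros1 result was not tested.

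Proc, the gene of protein C itself, had log2 fold changes above 0 that did not pass. It read 641, 765 and 551 CPM with NaCl, 928, 814 and 728 CPM after 25 mg/kg, and 831, 771 and 840.1 CPM after 50 mg/kg. The 50 mg/kg libraries all lay just above the NaCl libraries. The log2 fold changes were 0.34 at 25 mg/kg (SE 0.16, adjusted p = 0.20) and 0.32 at 50 mg/kg (SE 0.16, adjusted p = 0.21).

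The serpin inhibitors of clotting, Serpinc1 and Serpind1, passed at neither dose. Serpinc1, the gene of antithrombin, read 2436, 2033 and 1980.0 CPM with NaCl, 2119, 2341 and 1892 CPM after 25 mg/kg, and 2244, 2291 and 2395 CPM after 50 mg/kg. Its highest library was 1.29 times its lowest, the smallest such ratio of any member. Serpind1, the gene of heparin cofactor II, read 720.3, 627 and 606 CPM with NaCl, 493, 719 and 514 CPM after 25 mg/kg, and 532, 518 and 542 CPM after 50 mg/kg. Its 50 mg/kg libraries lay below all NaCl libraries, and the log2 fold change was -0.30 (SE 0.17, adjusted p = 0.26). In Serpinc1, 34.4% of the exon bases are shared with Zbtb37 on the opposite strand, and with no strand setting stated reads of the overlapping genes cannot be told apart. Zbtb37 held 2270 counts in all, against 330641 for Serpinc1.

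In the contact system, Klkb1 encodes plasma prekallikrein and Kng1 encodes kininogen, its carrier and the source of bradykinin. Klkb1 read 20.7, 27.2 and 30.6 CPM with NaCl, 14.8, 39.2 and 12.8 CPM after 25 mg/kg, and 13.7, 14.2 and 13.8 CPM after 50 mg/kg. All 50 mg/kg libraries lay below the NaCl libraries, while 25 mg/kg replicate 2 was the highest of the 9. The log2 fold change was -0.92 at 50 mg/kg (SE 0.38, adjusted p = 0.13) and -0.24 at 25 mg/kg (SE 0.37, adjusted p = 0.72). Without 25 mg/kg replicate 2 Klkb1 was called at both doses, and at 50 mg/kg also when only the groups compared were fitted, with a lowest adjusted p of 0.022 at 25 mg/kg and 0.012 at 50 mg/kg over the alternatives. Of the Klkb1 exon bases, 43.2% lie also in exons of Gm45753 on the same strand, which is listed at 0 in all libraries. How the counting treated reads in that overlap was not tested. Kng1 read 1826, 1178 and 1441 CPM with NaCl, 1346, 2286 and 1325 CPM after 25 mg/kg, and 1486, 1359 and 1189 CPM after 50 mg/kg, and it too was highest in 25 mg/kg replicate 2. Kng2 is a close copy of Kng1, and how reads that match both were counted is not stated. F11 and Klkb1 lie 4.66 kb apart on chromosome 8, on the same strand.

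Of the fibrinolysis pair, Plg encodes plasminogen and Serpinf2 encodes antiplasmin, the inhibitor of plasmin. Plg read 2386, 2078 and 1929 CPM with NaCl, 1852, 2312 and 1767 CPM after 25 mg/kg, and 2218, 1813 and 1922 CPM after 50 mg/kg, so the groups overlapped. Serpinf2 read 1377, 1531 and 1317 CPM with NaCl, 1097, 1269 and 890.1 CPM after 25 mg/kg, and 1278, 930.2 and 1392 CPM after 50 mg/kg. The 25 mg/kg libraries of Serpinf2 were below all NaCl libraries, and the log2 fold change was -0.38 (SE 0.19, adjusted p = 0.23).

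Mouse has a pair of mannose-binding lectin genes, Mbl1 on chromosome 14 and Mbl2 on chromosome 19, where humans have a single active one. Their products bind microbial sugars and carry the proteases of the lectin pathway, of which Masp1 is a member. RefSeq windows of their starts, from 250 bases before to 50 bases after (GRCm38.p6, both on the + strand, at chr14:41151206-41151505 and chr19:30232678-30232977), are shown because both genes were called. Mbl1 was called lower at 25 mg/kg only and Mbl2 higher at 50 mg/kg only, so no comparison called both. Capitals mark the highest-scoring ungapped match of the windows, 45 bases of which 38 are identical (84.4%). It starts 51 bases before the start of Mbl1 and 85 bases before the start of Mbl2.
Mbl1: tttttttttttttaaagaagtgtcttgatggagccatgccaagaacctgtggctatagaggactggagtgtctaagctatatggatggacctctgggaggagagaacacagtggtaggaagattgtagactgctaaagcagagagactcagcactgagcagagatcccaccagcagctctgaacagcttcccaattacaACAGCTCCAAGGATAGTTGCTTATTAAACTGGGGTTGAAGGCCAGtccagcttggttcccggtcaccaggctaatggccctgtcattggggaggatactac
Mbl2: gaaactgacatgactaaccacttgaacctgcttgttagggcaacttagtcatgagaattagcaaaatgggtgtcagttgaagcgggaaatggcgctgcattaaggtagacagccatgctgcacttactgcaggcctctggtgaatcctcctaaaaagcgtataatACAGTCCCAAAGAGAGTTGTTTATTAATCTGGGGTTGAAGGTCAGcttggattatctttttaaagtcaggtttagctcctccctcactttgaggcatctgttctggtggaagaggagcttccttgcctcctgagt
Scored as identical minus different bases, this match reached 31. Matches of either window to the windows of the 23 other entries of members scored 8 to 15.

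Mbl1 read 152, 127 and 151 CPM with NaCl, 81.3, 74.1 and 75.8 CPM after 25 mg/kg, and 103, 72.3 and 125 CPM after 50 mg/kg. The 25 mg/kg libraries lay close together and far below the NaCl libraries. The 50 mg/kg libraries were spread out, with replicate 3 at 125 CPM just under the lowest NaCl library at 127 CPM. Mbl1 (ENSMUSG00000037780, chromosome 14, 41151458 to 41159601) fell by 0.89 on the log2 scale at 25 mg/kg (SE 0.20, adjusted p = 0.018). At 50 mg/kg the log2 fold change was -0.52 (SE 0.20, adjusted p = 0.11), and it passed when 50 mg/kg replicate 3 was left out (adjusted p = 0.042). The call at 25 mg/kg ended without NaCl replicate 1 or 3, or 25 mg/kg replicate 1 or 3, with a highest adjusted p of 0.073 and log2 fold changes of -0.98 to -0.85 over the 20 alternatives.

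Mbl2 read 284, 268 and 259 CPM with NaCl, 296, 309 and 290 CPM after 25 mg/kg, and 422, 337 and 354 CPM after 50 mg/kg. The groups did not overlap and stood in the order of dose. Mbl2 (ENSMUSG00000024863, chromosome 19, 30232942 to 30239687) rose by 0.46 on the log2 scale at 50 mg/kg (SE 0.13, adjusted p = 0.047). At 25 mg/kg the log2 fold change was 0.14 (SE 0.13, adjusted p = 0.53), and between the doses it was 0.32 (95% interval 0.02 to 0.62, adjusted p = 0.56). This call was the least firm: it ended in 16 of 20 alternatives, including each omission of a single library, with adjusted p-values of 0.0076 to 0.16 and log2 fold changes of 0.37 to 0.56.

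The ratio of Mbl2 to Mbl1, a measure chosen after the values were seen and therefore given with no test, was 2.69, 3.05 and 2.47 with NaCl (FPKM over FPKM). It was 5.25, 6.00 and 5.52 after 25 mg/kg, and 5.91, 6.73 and 4.08 after 50 mg/kg. No retrorsine library reached down to an NaCl library in this ratio. The group means were 5.59 ± 0.38 after 25 mg/kg and 5.57 ± 1.4 after 50 mg/kg, against 2.74 ± 0.29 with NaCl (SD, n = 3 each). Masp1 read 219, 203 and 213 CPM with NaCl, 219, 231 and 177 CPM after 25 mg/kg, and 218, 151 and 200.4 CPM after 50 mg/kg, so its groups overlapped.

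**Figure D3:**
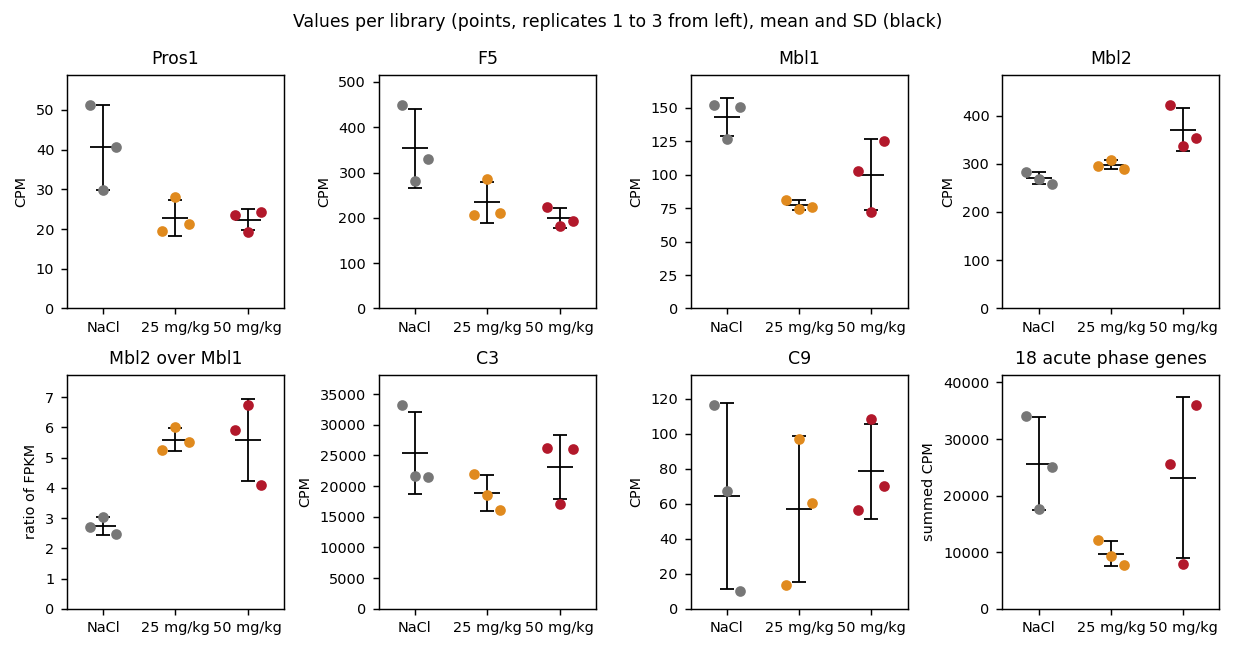
Values in each library (points, replicates 1 to 3 from left to right) with the mean and SD of each group (black), on axes from 0, for Pros1, F5, Mbl1, Mbl2, the ratio of Mbl2 to Mbl1, C3, C9 and the summed CPM of 18 acute phase genes. Pros1 lies between 19.3 and 28.0 CPM in the 6 retrorsine libraries, below the NaCl libraries, and the Mbl2 to Mbl1 ratio is at least 4.08 in them. C9 and the acute phase sum vary widely within groups.

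C3 held more counts than any other member, and its groups overlapped. It read 33160, 21630 and 21440 CPM with NaCl, 21930, 18580 and 16020 CPM after 25 mg/kg, and 26130, 17140 and 26020 CPM after 50 mg/kg. NaCl replicate 1 was the highest and 25 mg/kg replicate 3 the lowest. The log2 fold changes were -0.43 at 25 mg/kg (SE 0.24, adjusted p = 0.27) and -0.14 at 50 mg/kg (SE 0.24, adjusted p = 0.73). C3 is an acute phase gene, and the 18 acute phase genes outside the members summed to 34130, 17700 and 25010 CPM with NaCl, 12110, 9353 and 7748 CPM after 25 mg/kg, and 25650, 7931 and 35960 CPM after 50 mg/kg. NaCl replicate 1, 50 mg/kg replicate 1 and 50 mg/kg replicate 3 were the 3 highest for both C3 and this sum. The part of the acute phase level in the values of C3 was not tested.

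C4b, the mouse C4 shared by the classical and lectin pathways, read 2210.0, 2059 and 1665 CPM with NaCl, 1793, 1365 and 1607 CPM after 25 mg/kg, and 1906, 1542 and 1916 CPM after 50 mg/kg. Its groups overlapped, and C4a, its close copy, was not found under that name in the deposited table. Cfi, the protease that inactivates C3b and C4b, read 433, 365 and 394 CPM with NaCl, 384, 507 and 348 CPM after 25 mg/kg, and 423, 388 and 338 CPM after 50 mg/kg, with overlap again. Cfb, the protease of the alternative pathway convertase, was listed far lower, at 1.88, 2.22 and 1.16 CPM with NaCl, 1.08, 0.864 and 1.08 CPM after 25 mg/kg, and 1.70, 0.910 and 2.25 CPM after 50 mg/kg. All 25 mg/kg libraries of Cfb were below the NaCl libraries, and the log2 fold change was -0.79 (SE 0.43, adjusted p = 0.26). Cfb held 222 counts in all 9 libraries, and 79.5% of its exon bases also lie in exons of Gm20547 on the same strand, which is listed at 0 throughout. Whether the low level of Cfb reflects the counting of these shared bases was not tested.

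Of the 6 terminal complement genes, 0 passed the threshold at either dose by edgeR, DESeq2 or limma-voom. C8b and C8g had an unadjusted p under 0.05 at 25 mg/kg, as did C8b at 50 mg/kg. The C8 complex is built of 3 chains from separate genes. C8b, the beta chain, read 280, 249 and 210 CPM with NaCl, 215, 157 and 192 CPM after 25 mg/kg, and 206, 175 and 178 CPM after 50 mg/kg. Its 50 mg/kg libraries were below all NaCl libraries, with log2 fold changes of -0.40 at 50 mg/kg (SE 0.17, adjusted p = 0.14) and -0.39 at 25 mg/kg (SE 0.17, adjusted p = 0.16). C8g, the lipocalin chain, read 169, 186 and 156 CPM with NaCl, 285, 214 and 183 CPM after 25 mg/kg, and 199, 207 and 215 CPM after 50 mg/kg. Its 50 mg/kg libraries lay above all NaCl libraries, and its log2 fold changes were 0.28 at 50 mg/kg (SE 0.17, adjusted p = 0.30) and 0.42 at 25 mg/kg (SE 0.17, adjusted p = 0.14). C8a, the alpha chain, averaged 336 ± 23 CPM with NaCl, 302 ± 74 CPM after 25 mg/kg and 264 ± 104 CPM after 50 mg/kg, with overlap (SD, n = 3 each). It neighbours C8b on chromosome 4 at 11.1 kb, on the opposite strand.

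Hc, the gene of C5, whose cleavage starts the terminal pathway, averaged 482 ± 73, 384 ± 43 and 373 ± 100 CPM with NaCl, 25 mg/kg and 50 mg/kg, and its groups overlapped. C6, a component that joins C5b, was low and uneven at 16.5, 7.93 and 10.6 CPM with NaCl, 21.2, 11.4 and 16.3 CPM after 25 mg/kg, and 9.54, 6.43 and 14.4 CPM after 50 mg/kg. C9, the pore-forming subunit, was the most variable member, at 116, 67.4 and 10.2 CPM with NaCl, 13.8, 97.2 and 60.4 CPM after 25 mg/kg, and 56.4, 109 and 70.3 CPM after 50 mg/kg. NaCl replicate 3 and 25 mg/kg replicate 1 were the low libraries. The highest was 11.4 times the lowest, where the median of this ratio was 1.72 over the 31 members and 2.36 over the 12382 tested genes with reads in every library. The 95% interval of its log2 fold change ran from -1.94 to 1.59 at 25 mg/kg and from -1.48 to 2.05 at 50 mg/kg. Differences within those bounds were not excluded here.

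Vtn read 4079, 3090.0 and 3302 CPM with NaCl, 2979, 2903 and 2448 CPM after 25 mg/kg, and 3282, 2812 and 3507 CPM after 50 mg/kg. Its 25 mg/kg libraries lay below all NaCl libraries, and the log2 fold change was -0.33 (SE 0.16, adjusted p = 0.22). Ahsg, a carrier that keeps calcium phosphate soluble in plasma, read 8181, 8247 and 7096 CPM with NaCl, 7606, 9484 and 8675 CPM after 25 mg/kg, and 8731, 9106 and 8940.0 CPM after 50 mg/kg. Its 50 mg/kg libraries lay above all NaCl libraries, and the log2 fold change was 0.19 (SE 0.14, adjusted p = 0.41).

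Gene span, the length from first to last exon, ran with the fold change over all genes tested (Spearman's rho -0.44 at 25 mg/kg and -0.52 at 50 mg/kg, 12557 genes). Over the 31 members rho was -0.04 at 25 mg/kg and -0.47 at 50 mg/kg. These are descriptions across genes, which share their libraries and are not independent replicates. With a limit of 50 kb chosen after the data were seen, 7 members were long: F5, Pros1, Hc, C6, C8a, Masp1 and C9. Their median log2 fold change was -0.18 at 25 mg/kg and -0.35 at 50 mg/kg, against -0.44 and -0.53 for all 3427 long genes. The 24 shorter members had medians of -0.14 and -0.11, against 0.135 and 0.145 for the 9130 shorter genes. F5 spans 68.4 kb and Pros1 75.0 kb, and 21.3% of long genes were called lower at 25 mg/kg and 23.9% at 50 mg/kg. The part of span in the F5 and Pros1 results was not tested.

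**Figure D4:**
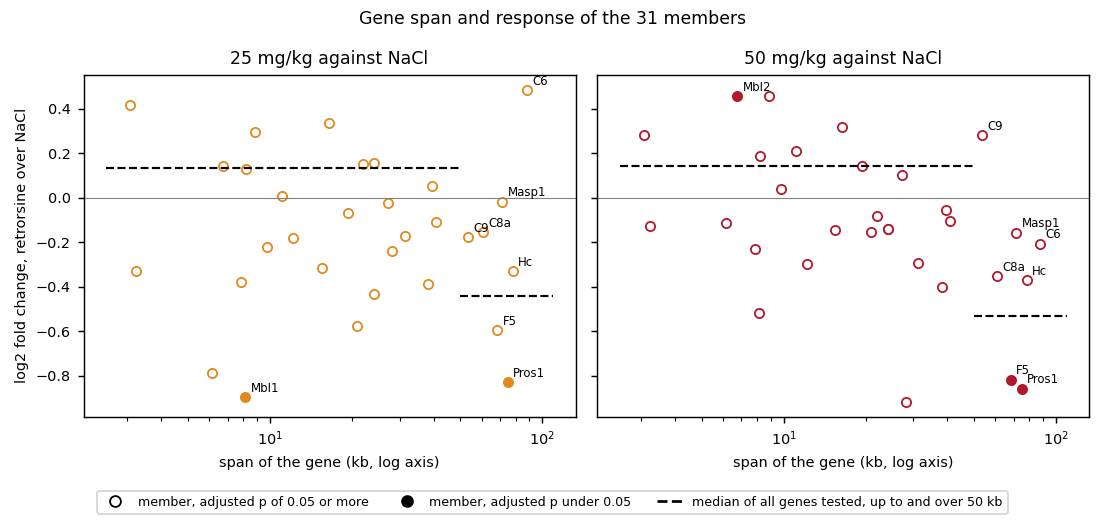
Log2 fold change over NaCl against the span of the gene in kb (log axis) for the 31 members at each dose, with filled points for an adjusted p under 0.05 and dashed lines for the median of all genes tested up to and over 50 kb. F5 and Pros1 lie below the dashed line of long genes, at -0.82 and -0.86 after 50 mg/kg, while Mbl1 and Mbl2 are short genes.

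The same pathways hold other genes, named here from lists by the lowest adjusted p. Of 24 other coagulation and fibrinolysis genes, edgeR called 1 (4.17%) at 25 mg/kg, lower, against 13.5% of all genes. At 50 mg/kg it called 0, against 15.1% of all genes, and 4 of the list had an unadjusted p under 0.05. DESeq2 called 4 and 1 of the 24, and limma-voom 1 and 0. Their median log2 fold change was -0.21 at 25 mg/kg and 0.057 at 50 mg/kg. The gene called was Fgg, the fibrinogen gamma chain, with 2299, 2556 and 1626 CPM after 25 mg/kg, against NaCl values of 5531, 3547 and 4655 CPM. It fell by 1.08 on the log2 scale at 25 mg/kg (SE 0.30, adjusted p = 0.044). Its 50 mg/kg libraries read 3857, 2021 and 4530.0 CPM, with the low library the one that was low in the acute phase sum. The Fgg call ended in 10 of 20 alternatives, among them the omission of any 1 NaCl or 25 mg/kg library or of 50 mg/kg replicate 1, with log2 fold changes of -1.24 to -0.91. F3, the gene of tissue factor, had the lowest p at 50 mg/kg (log2 fold change 1.34, SE 0.43, adjusted p = 0.062). It read 3.34, 4.35 and 8.38 CPM after 50 mg/kg, against NaCl values of 1.48, 2.38 and 2.46 CPM, and the highest library is the one high in neutrophil markers. DESeq2 and the replicate block put it past the threshold, and over the alternatives its log2 fold change was 0.67 to 1.60 (0.86 without 50 mg/kg replicate 3) and its adjusted p 0.020 to 0.36.

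Of 25 other complement genes tested, C3ar1, the receptor for the C3a fragment, rose at both doses. edgeR called no other gene of the list, so 4.0% of it passed at each dose, against 13.5% and 15.1% of all genes. DESeq2 called 4 of the list at 25 mg/kg and 2 at 50 mg/kg, and limma-voom called 1 at each. The median of the list was 0.14 and 0.040 on the log2 scale. It read 7.23, 4.12 and 6.88 CPM after 25 mg/kg and 7.05, 4.29 and 5.66 CPM after 50 mg/kg, against NaCl values of 1.68, 1.97 and 3.06 CPM. The log2 fold changes were 1.43 (SE 0.34, adjusted p = 0.024) and 1.33 (SE 0.34, adjusted p = 0.029). C3ar1 is expressed by macrophages, and the summed level of 10 Kupffer cell and macrophage markers, all detected, was 532 to 778 CPM after 25 mg/kg and 341 to 754 CPM after 50 mg/kg, against NaCl values of 400 to 541 CPM. These markers include C1qa, C1qb and C1qc, which are also in this list of complement genes. The part of the macrophage level in the C3ar1 result was not tested. The call ended without NaCl replicate 1 or NaCl replicate 2 at both doses, without 25 mg/kg replicate 1 or 25 mg/kg replicate 3 at 25 mg/kg, and without 50 mg/kg replicate 1 at 50 mg/kg. The log2 fold change of C3ar1 was 1.27 to 1.73 at 25 mg/kg and 1.154 to 1.62 at 50 mg/kg over the 20 alternatives.

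Of 7 genes for the vitamin K cycle and the secretion of clotting factors, 2 fell at 25 mg/kg (28.6%) and 1 at 50 mg/kg (14.3%). Over all genes tested, 13.5% and 15.1% were called. The list medians were -0.22 and -0.14 on the log2 scale. DESeq2 and limma-voom each called 3 of the 7 at 25 mg/kg and 1 at 50 mg/kg. Ggcx, the carboxylase that modifies the vitamin K-dependent factors, read 60.3, 52.1 and 58.9 CPM after 25 mg/kg, against NaCl values of 88.3, 83.3 and 82.4 CPM, or -0.57 on the log2 scale (SE 0.13, adjusted p = 0.023). After 50 mg/kg it read 68.7, 78.1 and 71.4 CPM, also below each NaCl library, without passing. Furin, a protease that removes propeptides in the secretory pathway, read 318, 344 and 310.1 CPM after 25 mg/kg and 319, 288 and 355 CPM after 50 mg/kg, against NaCl values of 452, 517 and 409 CPM. It fell by 0.50 on the log2 scale at 25 mg/kg (SE 0.14, adjusted p = 0.047) and by 0.52 at 50 mg/kg (SE 0.14, adjusted p = 0.040). The Ggcx call ended in 9 of 20 alternatives, among them the replicate block and the omission of any 1 NaCl or 25 mg/kg library. The Furin call ended in 15 of 20 alternatives at 25 mg/kg and in 12 at 50 mg/kg, the omission of any 1 NaCl library, of 25 mg/kg replicate 1 or 3, or of 50 mg/kg replicate 1 or 2 among them in both cases, and that of 25 mg/kg replicate 2 at 25 mg/kg. The Furin log2 fold change stayed between -0.58 and -0.41 at 25 mg/kg and between -0.61 and -0.43 at 50 mg/kg.

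Among 24 other hepatocyte plasma proteins, edgeR called 0 at 25 mg/kg, as did DESeq2 and limma-voom, with 1 at an unadjusted p under 0.05 (Itih3, log2 fold change -0.46, SE 0.20, adjusted p = 0.16). At 50 mg/kg edgeR called 1 (4.17%), against 15.1% of all genes. The list medians were 0.13 and 0.10 on the log2 scale. The gene called was Serpina7, thyroxine-binding globulin, with 128, 96.0 and 243 CPM after 50 mg/kg, against NaCl values of 56.5, 4.40 and 20.8 CPM (log2 fold change 2.52, SE 0.75, adjusted p = 0.049). Of 18 acute phase genes, Itih4 and Saa4 fell at 25 mg/kg, or 11.1%, against 13.5% of all genes. They fell by 1.09 (SE 0.27, adjusted p = 0.027) and 2.29 (SE 0.56, adjusted p = 0.027) on the log2 scale, and all 18 had a log2 fold change below 0. DESeq2 called 7 of the 18 at 25 mg/kg and limma-voom 2. At 50 mg/kg 0 of 18 were called by edgeR, DESeq2 or limma-voom, with 9 below 0 and 1 at an unadjusted p under 0.05 (Cd14, log2 fold change 1.99, SE 0.85, adjusted p = 0.14). The medians of this list were -1.31 and -0.17 on the log2 scale. The Itih4 and Saa4 calls ended without NaCl replicate 1 or 3, and without each of the 25 mg/kg libraries in turn. The Serpina7 call ended when only the groups compared were fitted, and without any 1 library other than NaCl replicate 1. Its log2 fold change was 2.01 to 3.88 over the alternatives, 3.63 without NaCl replicate 1 and 2.04 without 50 mg/kg replicate 3.

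Of 13 hepatocyte transcription factors, Onecut1 and Onecut2 fell at both doses, or 15.4%, against 13.5% and 15.1% of all genes. The list medians were -0.080 and -0.048 on the log2 scale. DESeq2 called 3 and 5 of the list, and limma-voom 2 and 3. Onecut2 read 25.9, 27.0 and 22.4 CPM after 25 mg/kg and 23.7, 19.6 and 25.1 CPM after 50 mg/kg, against NaCl values of 71.3, 48.2 and 47.7 CPM. Its log2 fold changes were -1.15 (SE 0.20, adjusted p = 0.0066) and -1.29 (SE 0.20, adjusted p = 0.0043). Onecut1, or HNF6, had log2 fold changes of -2.85 at 25 mg/kg (SE 0.55, adjusted p = 0.010) and -1.79 at 50 mg/kg (SE 0.52, adjusted p = 0.046), and 52.8% of its exon bases lie also in Gm20649 on the same strand. It read 6.26, 1.86 and 9.10 CPM after 25 mg/kg and 11.4, 13 and 11.9 CPM after 50 mg/kg, against NaCl values of 27.4, 71.8 and 26.1 CPM. The highest of these, NaCl replicate 2, is the library high in cholangiocyte markers. Over the alternatives the Onecut1 log2 fold change was -3.35 to -2.21 at 25 mg/kg and -2.07 to -1.148 at 50 mg/kg. Without NaCl replicate 2 it was -2.21 at 25 mg/kg (adjusted p = 0.029) and -1.148 at 50 mg/kg (adjusted p = 0.16). Over the 20 alternatives the Onecut2 calls and the Onecut1 call at 25 mg/kg held. The Onecut1 call at 50 mg/kg ended in 10 of 20. These were the replicate block, the 2 omissions of a pair, and the omission of any 1 NaCl or 50 mg/kg library or of 25 mg/kg replicate 1.

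Between the doses, edgeR called 0 genes of these 6 lists, limma-voom 0 and DESeq2 1. An unadjusted p under 0.05 was reached by 6 coagulation, 4 complement, 1 vitamin K cycle, 0 plasma protein, 1 transcription factor and 9 acute phase genes. All 18 acute phase genes were higher after 50 mg/kg than after 25 mg/kg in fitted fold change, with a median of 1.44 on the log2 scale. The groups overlapped in their sum, where 50 mg/kg replicate 2 lay within the 25 mg/kg range and the other 50 mg/kg libraries above it. Lcn2 read 1248, 47.4 and 2761 CPM after 50 mg/kg, against 25 mg/kg values of 147, 40.4 and 65.8 CPM. It was highest in 50 mg/kg replicate 3, which was also highest in the acute phase sum, a sum that includes Lcn2. The neutrophil markers summed to 9.60, 6.56 and 169 CPM in the 50 mg/kg libraries. The part of neutrophils in the Lcn2 values was not tested. The genes with the lowest p in their lists were F3 (log2 difference 1.44), Colec10, a lectin of complement (-1.37), Ggcx (0.35), Trf, which encodes transferrin (0.31), Cebpa, a hepatocyte transcription factor (0.60), and Lcn2, which encodes lipocalin 2 (4.003), with adjusted p-values of 0.55 to 0.64.

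RefSeq promoter windows were present for 24 of the 31 members (25 windows), and 6 short motifs, those of liver factors and the TATA box, were searched on both strands. The letters ATTGAT, as in Onecut sites, were in 5 of the members' 25 windows and in 7.54% of all 32851 windows. GTTAAT, part of an HNF1 site, was in 6 of 25 against 7.10%, and TTNNGCAA, a C/EBP site, in 7 of 25 against 10.8%. CAAAGTNCA, an HNF4 site, was in 2 of 25 against 1.41%, TGTTTAC, a FOXA site, in 2 of 25 against 3.65%, and TATAAA in 4 of 25 against 13.6%. At least 1 of the 6 was in the windows of 16 of the 24 members, and 0 of the 4 members called hold any of them. How many of all windows hold at least 1 was not counted, so these counts have no share to be read against. Only exact letters were counted. Motifs were counted separately, so matches of different motifs may share bases, and a match is a description of the letters in this window.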

How the data were processed

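Liver poly(A) RNA of WT mice was sequenced in 9 libraries, grouped by the labels. The authors deposited a whole-number read count per gene and library, not normalized. They also deposited FPKM, named so per the file headers, each of which lies within 1% of the count over gene length and column total. HISAT2 and the build GRCm38 are named per the submitters' processing notes. Counting tool, annotation and strand setting: not given in the sources used here. The 31 members' starts, ends and lengths were those of GENCODE M21.

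The analysis used edgeR 4.0.16 in R 4.3.3, with filterByExpr (12557 genes), TMM scaling, a fit of all 9 libraries by group mean with 6 residual degrees of freedom, the quasi-likelihood F test and Benjamini-Hochberg adjustment over all genes at 0.05. Standard errors were derived from the F statistic. The procedure was tested on simulated data. Intervals cover the spread between libraries. Reads carry no molecular identifiers.

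The members, the related lists and the tests were chosen with earlier results of these data known. All members are described, per library for those called and for the highest and lowest fold change of a role in a comparison, and C3 beside them. From each related list up to 3 called genes with the lowest adjusted p are named, or the 1 with the lowest p. The 20 alternatives were DESeq2 size factors, upper quartile scaling, library totals, DESeq2 1.42.0, limma-voom (limma 3.58.1), no filter, a filter of 1 CPM in 6 libraries, a replicate block, only the groups compared, each library left out in turn, and 2 omissions of a pair of libraries. FPKM were used to compare levels between genes and were not tested. Promoter sequences are from RefSeq (GRCm38.p6). The deposited table had 0 rows without a gene ID.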

Additional observations from a re-analysis of the deposited data

How the results depend on the processing

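The number of members called moved with the libraries kept. At 25 mg/kg it was 2, and 0 to 3 with a single library left out. It was 1 with the replicate block, 1 without both NaCl replicate 1 and 50 mg/kg replicate 2, and 1 without both NaCl replicate 1 and 50 mg/kg replicate 3. At 50 mg/kg it was 3, and 0 to 3 with a single library left out, 0 with the replicate block and 0 without either pair. The replicate numbers are not stated to pair the libraries: of 9 same-numbered pairs 2 correlated above 0.1 in their deviations from the group means, and 0 libraries correlated best with their own number. All sign changes among alternatives were of members not called, 9 at 25 mg/kg and 14 at 50 mg/kg. The related genes called at 25 mg/kg were 8, and 21 with DESeq2, 22 with only the groups compared, and 2 to 16 with a single library left out. At 50 mg/kg they were 5, and 10 with DESeq2, 3 with only the groups compared, 8 without both NaCl replicate 1 and 50 mg/kg replicate 3, and 1 to 7 with a single library left out. Between the doses they were 0, and 1 with DESeq2. Other scalings moved the median log2 fold change of all genes by less than 0.1. Leaving out a library also leaves fewer samples to estimate the spread. Depth limited Cfb most, with 222 counts in all.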
